A study of Mus musculus with 6 samples.

Results

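The receptors through which T cells receive a second signal beside the T cell receptor (TCR), and those that restrain them, were followed on 6 Affymetrix arrays of mouse Th2 cells. The genes were chosen by name as costimulatory and inhibitory members of the immunoglobulin superfamily, and comprised Cd28, Icos, Ctla4, Pdcd1, Lag3, Havcr2, Tigit, Btla, Cd160 and Cd200. Of these 10 genes, 9 were read by at least 1 probe set that names the gene alone, with 15 probe sets among them, out of 18194 genes and 45101 probe sets on the array. Tigit had no such probe set and was not analysed here. Cd28 was read by 2 probe sets, Icos by 3 and Cd160 by 4, and the brightest of them stood for the gene unless another is named.

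Splenic CD4 T cells of C57BL/6 mice, 6 to 8 weeks old, were cultured with anti-TCR and anti-CD28 mAb for 5 days under Th2 conditions (IL-4 at 100 U/ml with IL-2 at 25 U/ml) to give effector Th2 cells, called Th2-1st. Fully developed Th2 cells, called Th2-4th, came from about 4 weeks of culture in which rest without cytokines (2 days) alternated with 5 days of anti-TCR mAb, IL-2 and anti-IL-4 mAb, so that blockade of IL-4, the agents of restimulation and the number of cycles cannot be told apart between the cultures. All cells were transfected with siRNA by nucleofection and used 24 h later. Each culture gave 3 arrays: cells with Gata3 siRNA after 4 h of anti-TCR mAb, cells with control siRNA after 4 h of anti-TCR mAb, and cells with control siRNA without stimulation. The same Gata3 siRNA served both cultures, so an effect of that siRNA on other targets cannot be told apart from the loss of GATA3.

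CD28 binds CD80 and CD86 on antigen-presenting cells and lowers the threshold for T cell activation, and ICOS, its relative, binds ICOS ligand and sustains helper T cell responses. CTLA-4 competes with CD28 for the same ligands, whereas PD-1 (encoded by Pdcd1) and BTLA recruit phosphatases to the TCR signal. LAG-3 binds MHC class II, TIM-3 (Havcr2) was described as an inhibitory receptor of Th1 cells and of exhausted T cells, CD160 is a glycolipid-anchored receptor that shares the ligand HVEM with BTLA, and CD200 is a ligand that restrains myeloid cells through the CD200 receptor. Several of these genes are known to be transcribed after TCR signalling, and GATA3 is the transcription factor that directs Th2 differentiation.

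The deposited signals had the same trimmed mean on every array, from which a common scaling was inferred. The array median lay between 61.8 and 74.2, and a signal under it is called low here. Gata3 read 2853 with Gata3 siRNA and 9261 with control siRNA in stimulated Th2-4th cells, and 1798 and 4883 in stimulated Th2-1st cells. All 7 measured CD4 T cell markers lay above the array median on all 6 arrays, and 5 of 7 Th2 markers did. Foxp3, which defines regulatory T cells, was low on all 6 arrays (27.2 to 51.6), as were Ncr1 and Klra8 of NK cells, Cd79a and Pax5 of B cells, and Lyz2 and Itgam of myeloid cells. Other markers of such cells were not low. Klrd1 (86.2 to 1608), Prf1 (74.4 to 2317), Cd8a (124 to 217) and Cd8b1 of CD8 T and NK cells and Fcgr3 (62.5 to 191) of myeloid cells were above the array median on all 6 arrays, and Clec7a reached 1208. Cd79b of B cells reached 115. Of mast cells and basophils, Cpa3 read 44.9 to 582 and Mcpt8 3.01 to 873, the highest in stimulated Th2-4th control cells. Mcpt4, Fcer1a, Ms4a2, Kit and Tpsb2 were low on all 6 arrays. With 1 array per condition there is no replicate error and no p-value. The spread given beside a log2 ratio is a robust SD of the ratios of genes with a similar signal, real changes among them. In total RNA of a culture, fewer cells with a transcript and less transcript per cell cannot be told apart.

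The first comparison asked how the receptor genes responded to 4 h of TCR stimulation. Ctla4, Pdcd1, Lag3, Havcr2, Btla, Cd160 and Cd200 were over 2-fold higher in stimulated than in unstimulated control cells in both cultures, whereas Cd28 was lower in both and Icos lower in Th2-1st cells. These 7 of 9 measured genes compare with 18.7% of all genes over 2-fold in Th2-4th cells and 17.5% in Th2-1st cells, and with 14.6% and 10.7% of those genes that exceeded the array median on at least 1 of the 2 arrays, called measurable genes here. Under 0.5-fold were none of the 9 genes in Th2-4th cells, against 21.6% of all and 21.0% of measurable genes, and Icos alone in Th2-1st cells, against 16.9% and 16.7%. Past 2-fold in either direction were 40.3% of all genes in Th2-4th cells and 34.4% in Th2-1st cells. The median log2 ratio of the 9 genes was 2.73 in Th2-4th and 2.37 in Th2-1st cells, against -0.10 and -0.01 over all genes.

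**Figure D1:**
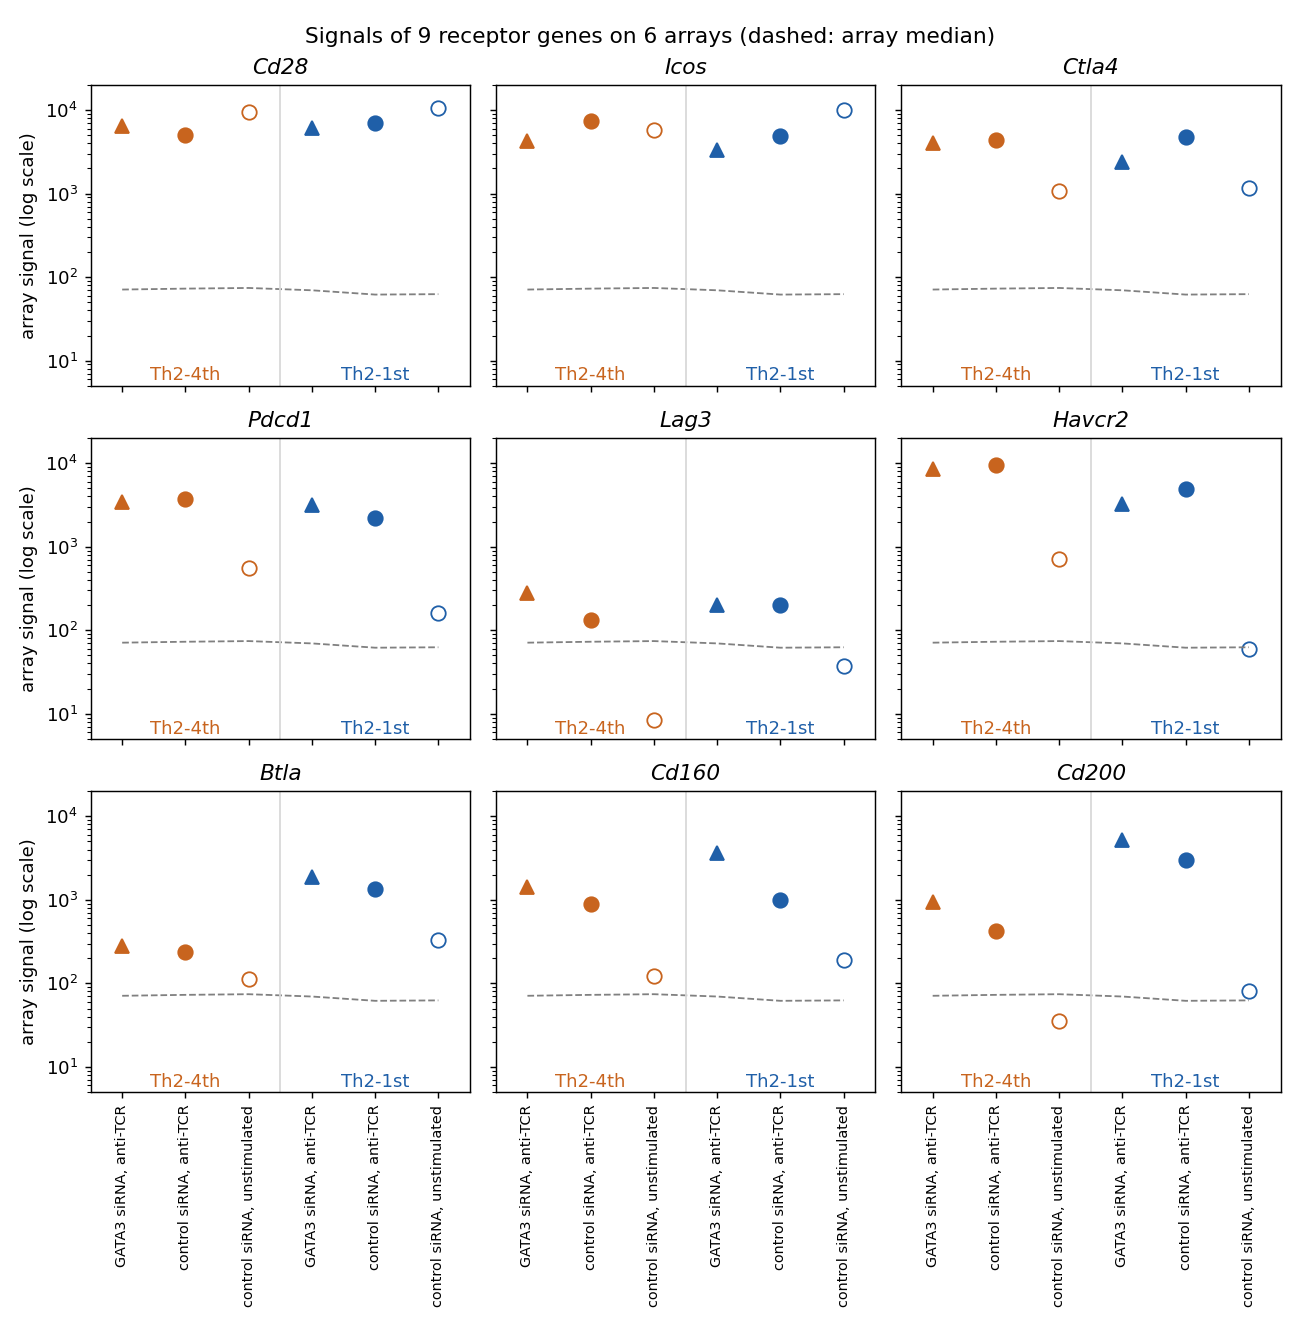
Array signal (vertical axis, log scale) of the 9 measured genes, 1 point per array. Orange symbols are Th2-4th cells and blue symbols Th2-1st cells, triangles are Gata3 siRNA cells and filled circles control siRNA cells after anti-TCR mAb, open circles are unstimulated control siRNA cells, and the dashed line is the array median. The open circles lie lowest in each culture for Ctla4, Pdcd1, Lag3, Havcr2, Btla, Cd160 and Cd200, and highest in both cultures for Cd28.

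Havcr2 had the steepest response of the 9 genes in Th2-1st cells. It read 8515 with Gata3 siRNA, 9464 with control siRNA after stimulation and 703.5 without stimulation in Th2-4th cells. In Th2-1st cells it read 3218 with Gata3 siRNA, 4844 with control siRNA after stimulation and 59.6 without stimulation, the last of these below the array median. Stimulated and unstimulated arrays were thus far apart in each culture, and both stimulated Th2-4th arrays lay above both stimulated Th2-1st arrays. The log2 response was 3.75 in Th2-4th cells (spread 0.94) and 6.34 in Th2-1st cells (spread 0.82), where 39 of 11022 measurable genes had a higher ratio. The difference between the cultures, -2.59, came with a higher signal at rest in Th2-4th cells, at a log2 ratio of 3.56 to Th2-1st cells (spread 0.79), against 0.97 after stimulation (spread 0.48).

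Pdcd1 read 3427 with Gata3 siRNA, 3692 with control siRNA after stimulation and 555 without stimulation in Th2-4th cells, and 3117, 2209.7 and 162 on the same arrays of Th2-1st cells. As with Havcr2, the unstimulated Th2-4th array stood above the unstimulated Th2-1st array, here by a log2 ratio of 1.78 (spread 0.79). The response to anti-TCR mAb was 2.73 in Th2-4th cells and 3.77 in Th2-1st cells, with spreads of 0.95 and 0.73. The 3 brightest arrays, both of stimulated Th2-4th cells and that of Gata3 siRNA in Th2-1st cells, were no further apart than the spread from 1 to the next.

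Ctla4 responded to the same extent in both cultures. It read 4064 with Gata3 siRNA, 4384 with control siRNA after stimulation and 1087 without stimulation in Th2-4th cells, against 2358, 4739.8 and 1179.6 in Th2-1st cells. The log2 response was 2.01 in each culture, a 4.03-fold and a 4.02-fold higher signal, with spreads of 0.94 and 0.76. Unlike Havcr2 and Pdcd1, Ctla4 did not differ between the cultures beyond the spread, with log2 ratios of Th2-4th to Th2-1st cells of -0.11 after stimulation and -0.12 without it. The array that stood apart from the other stimulated arrays was that of Gata3 siRNA in Th2-1st cells.

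Lag3 was near the limit of the measurement at rest. It read 283 with Gata3 siRNA, 134.5 with control siRNA after stimulation and 8.36 without stimulation in Th2-4th cells, and 199.9, 201 and 37.8 in Th2-1st cells, so that both unstimulated arrays lay below the array median and all stimulated arrays above it. The log2 response was 4.01 in Th2-4th cells (spread 1.05) and 2.41 in Th2-1st cells (spread 0.85). Raising low signals to the array median made it 0.86, short of 2-fold, and 1.68, so the order of the cultures turned.

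Btla and Cd200 had in common a lower signal in Th2-4th than in Th2-1st cells on matched arrays. Btla read 281 with Gata3 siRNA, 235 with control siRNA after stimulation and 112 without stimulation in Th2-4th cells, and 1853, 1363 and 333 in Th2-1st cells. Cd200 read 955, 428 and 35.8 in Th2-4th cells and 5202, 3005 and 80.8 in Th2-1st cells, in the same order. For Cd200, all 4 stimulated arrays lay above both unstimulated arrays, whereas the stimulated Th2-4th arrays of Btla lay below the unstimulated Th2-1st array, by no more than the spread for the brighter of them. Log2 responses of Btla were 1.06 in Th2-4th cells and 2.03 in Th2-1st cells, with spreads of 1.003 and 0.73, and those of Cd200 were 3.58 and 5.22, with spreads of 1.003 and 0.82. The unstimulated Th2-4th signal of Cd200 was below the array median, and with such signals raised to it the response there was 2.53.

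Cd160 read 1421 with Gata3 siRNA, 885 with control siRNA after stimulation and 122 without stimulation in Th2-4th cells, and 3665, 994 and 192 in Th2-1st cells. Both control arrays after stimulation were close to each other and above both unstimulated arrays, and the Gata3 siRNA array of Th2-1st cells stood above all others. The log2 response was 2.86 in Th2-4th cells and 2.37 in Th2-1st cells, with spreads of 1.01 and 0.82. A further probe set above the array median on all 6 arrays, 1420066_s_at, gave 3.44 and 2.73. Among the dimmer probe sets, 1420067_at gave 3.36 and 3.67, while 1456847_at, low on every array (10.5 to 57.5), gave 0.50 and -0.84.

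Cd28 was brightest without stimulation, the reverse of the 7 genes above. It read 6498 with Gata3 siRNA, 4986 with control siRNA after stimulation and 9427 without stimulation in Th2-4th cells, and 6023, 7027 and 10475 in Th2-1st cells. The log2 response was -0.92 in Th2-4th cells (spread 0.64) and -0.58 in Th2-1st cells (spread 0.46), in neither past 2-fold, although quantile normalization of the arrays gave -1.06 in Th2-4th cells. The other probe set of Cd28 gave -0.88 and -0.52. Ranked by signal, each array of Cd28 was within the spread of the next.

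Icos was the gene whose response turned with the culture. It read 4246 with Gata3 siRNA, 7455 with control siRNA after stimulation and 5764 without stimulation in Th2-4th cells, and 3308, 4919.7 and 10121 in Th2-1st cells. Stimulated control cells were thus somewhat above unstimulated cells in Th2-4th and clearly below them in Th2-1st cells. The log2 response was 0.37 in Th2-4th cells, under its spread of 0.64, and -1.04 in Th2-1st cells, past 2-fold with a spread of 0.46. All 3 probe sets of Icos gave the same signs, with 0.33 and 0.83 in Th2-4th cells and -1.29 and -1.51 in Th2-1st cells for the others. The difference between the cultures was 1.41, where 19.0% of the 12162 genes above the array median on at least 1 array had a difference of more than 1 in either direction.

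**Figure D2:**
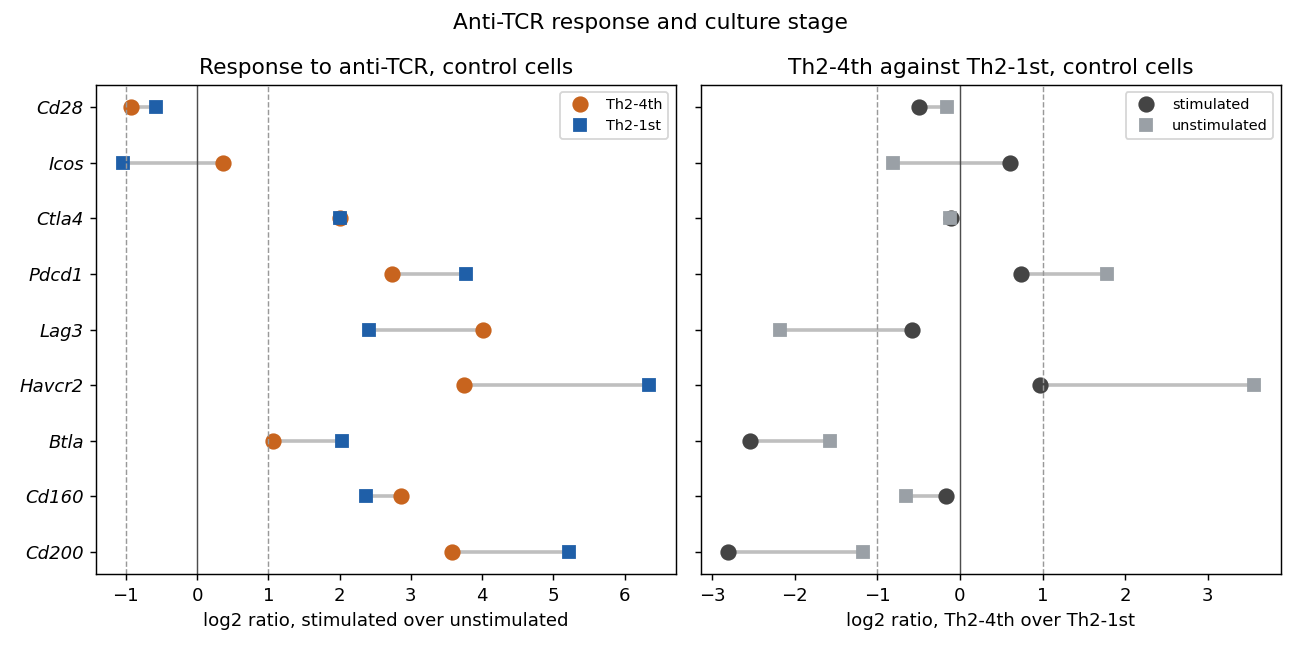
Log2 ratio of stimulated to unstimulated control cells (left; circles Th2-4th, squares Th2-1st cells) and log2 ratio of Th2-4th to Th2-1st control cells (right; circles stimulated, squares unstimulated cells) for the 9 genes, with dashed lines at 2-fold. The Ctla4 symbols coincide at 2.01, Icos lies on opposite sides of 0 in both panels, and Havcr2 spans 3.75 to 6.34 on the left.

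**Figure D3:**
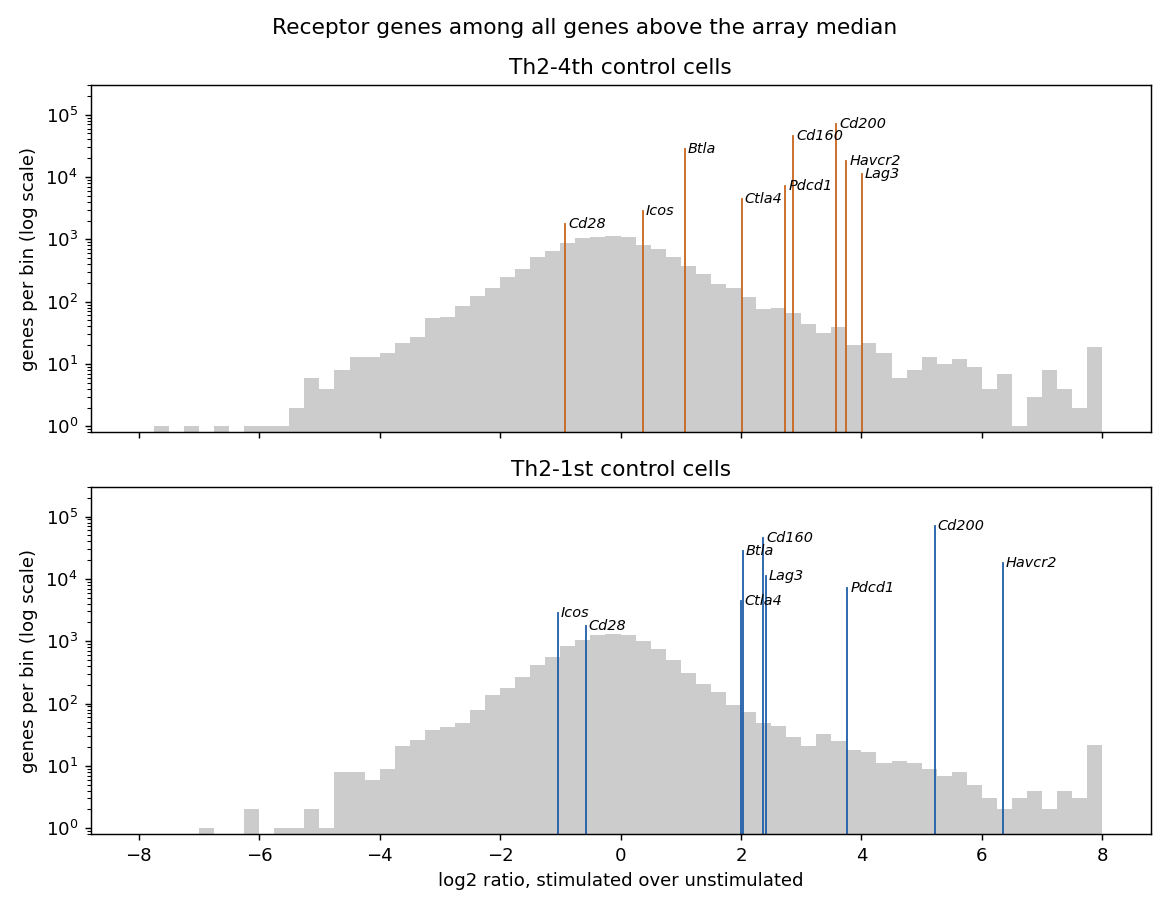
Number of genes (vertical axis, log scale) by log2 ratio of stimulated to unstimulated control cells (horizontal axis, values beyond 8 placed in the last bin), for measurable genes, above the array median on at least 1 of the 2 arrays, of Th2-4th cells (top, 11186 genes) and Th2-1st cells (bottom, 11022 genes). Coloured lines mark the 9 receptor genes and their height carries no value. Havcr2 and Cd200 lie in the right tail of Th2-1st cells, and Cd28 lies left of 0 in both.

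The second comparison set Th2-4th against Th2-1st control cells. Without stimulation, Havcr2 and Pdcd1 were over 2-fold higher in Th2-4th cells, where 19.5% of all genes were, and Lag3, Btla and Cd200 were under 0.5-fold, where 12.3% of all genes were. Log2 ratios were -1.57 for Btla (spread 0.78), -1.17 for Cd200 (spread 0.76) and -2.18 for Lag3 (spread 1.63), the last from low signals on both arrays. Once low signals were set to the array median, Cd200 stood at -0.12. Both Lag3 signals were then replaced, so its value of 0.25 is only the log2 ratio of the array medians (74.2 and 62.5). Of measurable genes, 11.9% were over 2-fold and 9.22% under 0.5-fold, and 31.8% of all genes were past 2-fold in either direction. After stimulation, no gene was over 2-fold higher in Th2-4th cells, against 17.2% of all and 11.4% of measurable genes, and Btla and Cd200 were under 0.5-fold, against 12.7% and 7.93%, with 29.9% of all genes past 2-fold in either direction. The stimulated signals of Btla and Cd200 were 5.81-fold and 7.02-fold lower in Th2-4th cells, at log2 ratios of -2.54 and -2.81 (spreads 0.57 and 0.51), and 99 and 68 of 11130 measurable genes had a lower ratio.

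Icos stood at -0.81 without stimulation and 0.60 after it. Its other probe sets gave -1.14 and -1.96 without stimulation, so that 2 of 3 were past 2-fold there, and 0.48 and 0.39 after stimulation. Cd28 stood at -0.15 and -0.49, and Cd160 at -0.66 and -0.17, without and after stimulation. The median of the 9 genes was -0.17 after stimulation and -0.66 without it, against 0.10 and 0.17 over all genes. B cells also express Btla and Cd200. The summed signal of 7 measured B cell markers was 189 in Th2-4th and 257 in Th2-1st stimulated control cells. In unstimulated cells it was 210 and 318, and none of the 7 was above the array median on all arrays. The median log2 ratio of Th2-4th to Th2-1st cells over the 7 was -0.17 without stimulation and -0.33 after it. Ratios in that order were -1.84 and -0.64 for Cd79b, -0.77 and -0.14 for Ms4a1 and -0.71 and -0.17 for Blnk. They were -0.17 and -0.63 for Cd22, 0.11 and -0.33 for Pax5, 1.04 and -2.09 for Ebf1 and 2.43 and 1.01 for Cd79a. Blnk, Cd22, Pax5, Ebf1 and Cd79a were low on all 6 arrays. The part of these markers in the result was not tested. For Havcr2, which myeloid cells also express, the summed signal of 10 myeloid markers was 725 in Th2-4th and 513 in Th2-1st unstimulated cells and 1713 and 907 after stimulation, with Lyz2, Itgam, Itgax and Flt3 low on all 6 arrays. The median log2 ratio of Th2-4th to Th2-1st cells over the 10 markers was 0.25 without stimulation and 0.45 after it. Much of each stimulated sum was Clec7a, at 1208 in Th2-4th and 453 in Th2-1st cells. Without stimulation and after it, ratios were 1.47 and 0.53 for Fcgr3, 1.85 and 0.69 for Cd14 and 0.97 and 0.38 for Spi1. Those of Clec7a were -0.67 and 1.42, of Csf1r -0.46 and 0.63, and of Adgre1 -0.07 and -1.10. The part of the myeloid markers was not tested either.

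The third comparison asked which of the receptor genes depended on continued GATA3 expression. Icos had a lower signal with Gata3 siRNA than with control siRNA in both cultures by all 3 probe sets, and Cd200 and Cd160 had a higher one in both, with the exception of 1 dim probe set of Cd160. Ctla4 was lower beyond the spread in Th2-1st cells and within it in Th2-4th cells, and Lag3 was higher beyond the spread in Th2-4th cells, with a ratio near 0 in Th2-1st cells. Lag3 and Cd200, 2 of 9 genes, were over 2-fold in Th2-4th cells and none was under 0.5-fold, where 10.6% of all genes passed each threshold, or 3.00% and 3.49% of the measurable genes. In Th2-1st cells Cd160, 1 of 9, was over 2-fold, where 13.3% of all and 4.41% of measurable genes were, and Ctla4, 1 of 9, was under 0.5-fold, where 7.49% and 2.26% were. Past 2-fold in either direction were 21.2% of all genes in Th2-4th cells and 20.8% in Th2-1st cells. The median log2 ratio of the 9 genes was 0.26 in Th2-4th and -0.01 in Th2-1st cells, against 0.01 and 0.05 over all genes. The control array of each culture enters this comparison and that of the TCR response, so the same array sets both ratios.

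**Figure D4:**
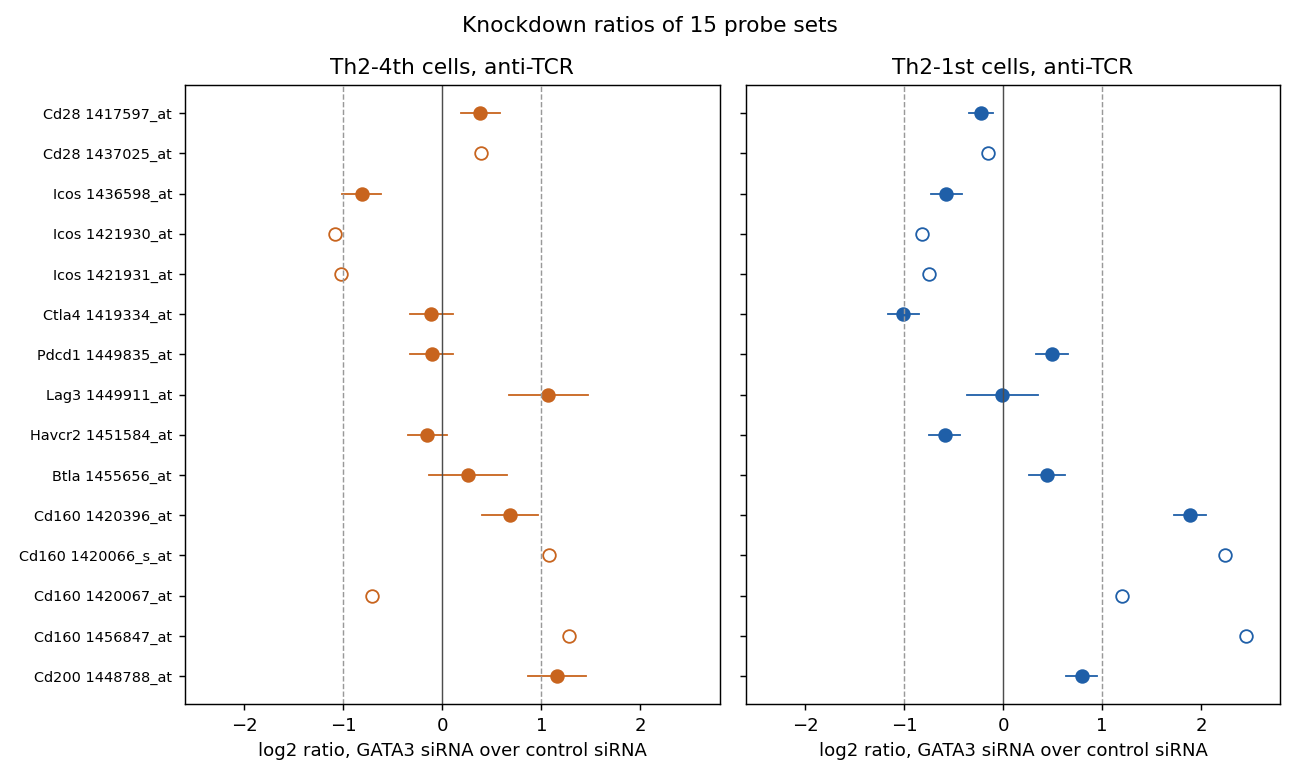
Log2 ratio of Gata3 siRNA to control siRNA (horizontal axis) for the 15 probe sets in stimulated Th2-4th cells (left) and Th2-1st cells (right). Filled points are the probe sets that stand for their gene, with bars of 1 spread to each side, open points are the other probe sets, and dashed lines mark 2-fold. The 3 points of Icos lie left of 0 in both panels. On the right the points of Cd160 reach 2.45, by a probe set low on all 6 arrays, and its filled point lies at 1.88.

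Ctla4 stood at a log2 ratio of -0.11 in Th2-4th cells (spread 0.22) and -1.01 in Th2-1st cells (spread 0.16), which passed 2-fold narrowly and missed it after quantile normalization (-0.98). In Th2-1st cells 246 of 10981 measurable genes had a lower ratio, against 3903 of 11045 in Th2-4th cells. The difference between the cultures was 0.90. Among genes above the array median on at least 1 array the robust SD of this difference was 0.42, and 13.2% were beyond 1. Regulatory T cells are known for high Ctla4 and Icos. The summed signal of 9 of their markers was 48210.4 with Gata3 siRNA and 54118 with control siRNA in Th2-4th cells and 37155 and 36988 in Th2-1st cells. Much of each sum was Tnfrsf4 (17612 to 22764 on these arrays). The median log2 ratio over the list was -0.22 in Th2-4th and -0.30 in Th2-1st cells, and 2 of 9 markers were under 0.5-fold in each culture and none over 2-fold. In Th2-4th cells Itgae stood at -2.50 and Ikzf2, low with Gata3 siRNA (37.0), at -1.23. In Th2-1st cells Izumo1r stood at -1.18 and Itgae, from low signals, at -1.05. Izumo1r stood at -0.66 in Th2-4th cells. Lower in both cultures were also Il2ra, at -0.34 and -0.30, and Tnfrsf18, at -0.22 and -0.32, in Th2-4th and Th2-1st cells. Nrp1 stood at -0.06 and 0.27 and Tnfrsf4 at -0.06 and 0.24, in the same order. Ikzf2 stood at -0.03 in Th2-1st cells, and Gpr83 at 0.24 in Th2-4th and -0.77 in Th2-1st cells. Foxp3 was low on each of these arrays, at 34.3 and 31.7 in Th2-4th cells and 27.2 and 32.9 in Th2-1st cells. The part of the markers in the results for Ctla4 and Icos was not tested.

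Icos stood at -0.81 in Th2-4th cells (spread 0.20) and -0.57 in Th2-1st cells (spread 0.16). The other 2 probe sets gave -1.08 and -1.03 in Th2-4th cells and -0.82 and -0.75 in Th2-1st cells, so 2 of 3 were past 2-fold in Th2-4th cells and none in Th2-1st cells. The mean over the 3 was -0.97 and -0.71. Cd28, next to Ctla4 and Icos in the RefSeq annotation of GRCm38.p6, where Ctla4 lies between them, was higher with Gata3 siRNA in Th2-4th cells, at 0.38 (spread 0.20), and lower in Th2-1st cells, at -0.22 (spread 0.12), and its other probe set gave 0.39 and -0.15.

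Cd160 had the largest knockdown ratio of the 9 genes in Th2-1st cells, a 3.69-fold higher signal with Gata3 siRNA at a log2 ratio of 1.88 (spread 0.16), and 121 of 10981 genes had a higher one. In Th2-4th cells the ratio was 0.68 (spread 0.28). The bright probe set 1420066_s_at read 1759 with Gata3 siRNA and 836 with control siRNA in Th2-4th cells, and 5162 and 1093 in Th2-1st cells, at ratios of 1.07 and 2.24. Its name ends in _s_at, which marks probes that can read more than 1 transcript. The dim 1420067_at gave -0.71 in Th2-4th cells, from signals of 47.4 and 77.7, and 1.20 in Th2-1st cells, and 1456847_at gave 1.28 and 2.45. CD8 T and NK cells are known for Cd160. The summed signal of 7 of their markers was 4703 with Gata3 siRNA and 3512 with control siRNA in Th2-4th cells and 1584 and 1178 in Th2-1st cells, and the median log2 ratio over the list was 0.22 and 0.51, with none over 2-fold. Among them Klrd1 stood at 0.62 and 0.63, Eomes at 0.22 and 0.92, Cd8b1 at 0.18 and 0.51, Prf1 at 0.46 and -0.03 and Cd8a at -0.02 and -0.09, in Th2-4th and Th2-1st cells, and Ncr1 and Klra8 were low on all 6 arrays. Several markers of the list were thus higher with Gata3 siRNA, as Cd160 was. The part of these markers in the result was not tested.

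Cd200 stood at 1.16 in Th2-4th cells (spread 0.29) and 0.79 in Th2-1st cells (spread 0.16), and 241 and 725 measurable genes had a higher ratio. Lag3 stood at 1.07 in Th2-4th cells, from modest signals with a spread of 0.40, and at -0.01 in Th2-1st cells. Btla had ratios of 0.26 (spread 0.40) and 0.44 (spread 0.19), so only the second was beyond the spread. Pdcd1 stood at -0.11 in Th2-4th cells and 0.50 in Th2-1st cells (spread 0.16), and Havcr2 at -0.15 and -0.59 (spreads 0.20 and 0.16). The median over the 10 myeloid markers was 0.08 in Th2-4th and 0.55 in Th2-1st cells, against 0.01 and 0.05 over all genes. Of them, Clec7a stood at -0.66 and -0.54, Adgre1 at 0.18 and -1.05, Csf1r at -1.60 and 0.77 and Fcgr3 at 0.23 and 0.34. The part of these markers in the values of Havcr2 was not tested. Ctla4, Pdcd1 and Havcr2 in Th2-4th cells all lay within the spread, whereas in Th2-1st cells Ctla4 and Havcr2 were lower and Pdcd1 higher than with control siRNA by more than it.

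The promoters of the 6 measured genes with an entry are shown to place the letters that the factors of the experiment are known to read. These were AGATAA or AGATAG and TGATAA or TGATAG for GATA factors, GGAAAA for NFAT and TGANTCA for AP-1. They were searched on both strands in the 250 bases before each start with an entry. RefSeq sequence of GRCm38.p6 was found for 7 of the 10 genes, Tigit among them. Matches are in capitals and are a description, not a site of binding.
Ctla4 promoter, chr1:60908775-60909024, + strand: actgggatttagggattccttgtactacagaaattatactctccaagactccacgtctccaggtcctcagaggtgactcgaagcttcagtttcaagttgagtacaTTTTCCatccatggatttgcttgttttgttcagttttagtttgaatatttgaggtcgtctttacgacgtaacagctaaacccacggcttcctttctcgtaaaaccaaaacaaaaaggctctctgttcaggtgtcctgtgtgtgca
Pdcd1 promoter, chr1:94052554-94052803, - strand: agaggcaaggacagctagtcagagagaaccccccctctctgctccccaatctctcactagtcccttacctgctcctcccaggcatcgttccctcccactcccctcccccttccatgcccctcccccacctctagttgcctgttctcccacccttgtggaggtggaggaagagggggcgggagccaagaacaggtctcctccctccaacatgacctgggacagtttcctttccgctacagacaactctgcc
Btla promoter, chr16:45224087-45224336, + strand: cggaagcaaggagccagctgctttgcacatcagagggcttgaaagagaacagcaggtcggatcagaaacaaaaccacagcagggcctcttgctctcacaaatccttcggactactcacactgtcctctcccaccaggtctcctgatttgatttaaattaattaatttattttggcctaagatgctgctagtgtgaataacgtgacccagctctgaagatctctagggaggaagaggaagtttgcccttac
Havcr2 promoter, chr11:46454681-46454930, + strand: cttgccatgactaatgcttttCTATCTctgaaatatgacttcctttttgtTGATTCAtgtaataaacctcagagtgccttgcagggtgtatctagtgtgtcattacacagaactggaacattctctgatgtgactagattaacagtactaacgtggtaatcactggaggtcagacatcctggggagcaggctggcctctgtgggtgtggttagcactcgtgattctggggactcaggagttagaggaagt
Cd160 promoter, chr3:96814522-96814771, - strand: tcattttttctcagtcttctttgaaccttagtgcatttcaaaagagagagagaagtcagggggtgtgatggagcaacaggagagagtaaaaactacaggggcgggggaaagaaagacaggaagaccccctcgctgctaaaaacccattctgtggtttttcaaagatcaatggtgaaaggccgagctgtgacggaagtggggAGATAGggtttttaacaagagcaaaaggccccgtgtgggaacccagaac
Cd160 promoter, chr3:96829352-96829601, - strand: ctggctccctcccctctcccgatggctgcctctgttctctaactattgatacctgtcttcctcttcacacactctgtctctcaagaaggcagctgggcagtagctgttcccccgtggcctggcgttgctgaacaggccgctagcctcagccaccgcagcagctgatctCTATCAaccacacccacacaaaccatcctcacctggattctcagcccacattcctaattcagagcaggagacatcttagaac
Cd200 promoter, chr16:45409054-45409303, - strand: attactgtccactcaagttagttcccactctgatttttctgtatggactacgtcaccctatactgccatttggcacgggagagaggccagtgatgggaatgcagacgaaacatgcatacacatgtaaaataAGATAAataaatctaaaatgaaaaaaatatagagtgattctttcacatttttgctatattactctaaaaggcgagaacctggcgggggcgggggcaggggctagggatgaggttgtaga

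The Ctla4 window held 1 NFAT match, on the other strand and so printed as TTTTCC, and no GATA or AP-1 match. Havcr2, with the steepest response in Th2-1st cells, held 1 AP-1 match, TGATTCA, 200 bases before the start, and 1 GATA match, 229 bases before it. Each of the 2 starts annotated for Cd160 had 1 GATA match, 49 and 82 bases before it, and Cd200 had 1, AGATAA, 119 bases before its start. The windows of Pdcd1 and Btla held none of these letters. The Btla window lies inside the annotated gene (chr16:45223705-45252895), before an internal start, and the bases before the outer start were not searched. The first Cd160 window also lies inside its gene (chr3:96798763-96829351). Over 32851 promoters of the same length, 26.5% held a GATA match, 20.4% an NFAT match and 6.75% an AP-1 match.

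Among the partners of the receptors, no ligand gene above the array median was past 2-fold with Gata3 siRNA. The ligand list also holds Cd200r1, the receptor gene of CD200. Of its 13 measured genes 2 were under 0.5-fold and none over 2-fold in Th2-4th cells. In Th2-1st cells 2 were over 2-fold and none under 0.5-fold. Medians were -0.11 and 0.08, where 10.6% of all genes were under 0.5-fold in Th2-4th cells and 13.3% over 2-fold in Th2-1st cells. The brightest were the genes of both PD-1 ligands. Pdcd1lg2, encoding PD-L2, read 7631 with Gata3 siRNA, 8744 with control siRNA after stimulation and 664.6 without stimulation in Th2-4th cells, and 4529, 4284 and 155 in Th2-1st cells. Cd274, encoding PD-L1, read 2256, 3988 and 917 in Th2-4th cells and 2573, 2636 and 239 in Th2-1st cells. Both therefore shared with Pdcd1 a signal that was higher after stimulation in each culture and, at rest, higher in Th2-4th cells. Icosl and Tnfrsf14, the ligand genes of ICOS and of BTLA and CD160, were low on all 6 arrays.

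With Gata3 siRNA, 10.6% of all genes were over 2-fold and 10.6% under 0.5-fold in Th2-4th cells, and 13.3% and 7.49% in Th2-1st cells. For measurable genes the shares were 3.00% and 3.49% in Th2-4th cells, and 4.41% and 2.26% in Th2-1st cells. Of 15 measured other immunoglobulin superfamily receptors, 1 was over 2-fold and 1 under 0.5-fold with Gata3 siRNA in Th2-4th cells and none in Th2-1st cells, with medians of 0.02 and 0.25. None of these calls was above the array median on both arrays. The brightest, the adhesion receptor Cd2 and its ligand Cd48, had knockdown ratios of 0.02 and 0.36 in Th2-4th cells and both of 0.06 in Th2-1st cells. Of 15 measured genes of CD28 signalling and inhibitory phosphatases, none was past 2-fold with Gata3 siRNA in either culture. After stimulation, 1 was over 2-fold and 5 under 0.5-fold in Th2-4th cells, and none was over and 4 under in Th2-1st cells, with medians of 0.05 and -0.63. The shares under 0.5-fold over measurable genes were 21.0% and 16.7%, so 5 and 4 of 15 were not far from the background. Pik3r1, the regulatory subunit of the kinase that CD28 and ICOS recruit, Ptpn6, the phosphatase SHP-1, Inpp5d, the phosphatase SHIP-1, and Csk, an inhibitory kinase, were lower in both. The brightest of the list, the kinase subunit gene Pik3cd and the adaptor gene Lcp2, are among those not past 2-fold.

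Of 18 transcription factors tied to checkpoint genes in other studies, 11 were over 2-fold after stimulation in Th2-4th cells and 8 in Th2-1st cells, with medians of 1.46 and 0.96, where 18.7% and 17.5% of all genes were over 2-fold. Nr4a2, an immediate early nuclear receptor, read 11583 with Gata3 siRNA, 8011 with control siRNA after stimulation and 139 without stimulation in Th2-4th cells, and 11130, 3646 and 69.9 in Th2-1st cells, and at a log2 ratio of 1.61 it was over 2-fold with Gata3 siRNA in Th2-1st cells. Tox2, a relative of the exhaustion factor TOX that was read by an _s_at probe set, read 233, 547.5 and 164 in Th2-4th cells, a knockdown ratio of -1.23, and 84.3, 150.4 and 47.1 in Th2-1st cells, a ratio of -0.83. These were the only factors past 2-fold with Gata3 siRNA while above the array median on both arrays, out of 16 such factors in each culture. Tox itself was low on all 6 arrays.

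Genes whose profile over the 6 arrays was closest to each receptor gene were found among 8852 genes above the array median on all arrays, by the root mean square difference of log2 signals centred on each gene's mean. For Cd28 they were Atpaf1 at 0.056, Commd7 at 0.064 and Slc10a7 at 0.069. For Ctla4 they were Got1 at 0.20, Tec at 0.21 and Hsd17b7 at 0.24, and for Icos Mif4gd at 0.20, Foxk1 at 0.21 and Cuedc1 at 0.22. Pdcd1 was closest to Ell2 (0.28), Ubash3b (0.29) and Mcoln2 (0.31), Cd160 to Ipcef1 (0.38), Ier3 (0.44) and Tnfsf9 (0.48), and Btla to Tmem97 (0.37), Erdr1 (0.51) and Snhg3 (0.51). Lag3, Havcr2 and Cd200 were low on at least 1 array and were not compared. Cd28 had close neighbours, and Btla and Cd160 had none as near, which describes 6 arrays that include the ones compared above. The distance is not scaled to the size of the changes, so a gene that varies little has near neighbours more easily. Cd28 ranged from 4986 to 10475, Btla from 112 to 1853 and Cd160 from 122 to 3665.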

How the data were processed

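RNA of 6 cell samples, 1 for each of 3 conditions of Th2-4th and Th2-1st cells, was hybridised to Affymetrix mouse arrays. The deposited values are linear signal intensities, 1 for each probe set, that the authors obtained with Expression Console. Its version and its algorithm were not given in the sources used here. With 2% of probe sets trimmed at either end, their mean was 500.0 on every array. No detection call or scanner file was used, so a signal below the array median was treated as low, and the single array of each condition limits the precision.

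Of 45101 probe sets, the platform annotation gave 34958 a single gene, 932 several and 9211 none, and 34754 matched RefSeq (GRCm38.p6) by gene identifier for current symbols. Each of 18194 genes was represented by its brightest probe set (mean of log2 signals). Log2 ratios of array pairs were computed for 6 comparisons, and a ratio under 0.5 or over 2 was counted, as in the study, with no p-value. The spread is the median absolute deviation of log2 ratios, times 1.4826, within 20 bins of signal. The steps were tested on simulated data. The genes named were every receptor gene of the list with every probe set, Gata3, the partner genes past 2-fold above the array median with Gata3 siRNA or otherwise the 2 brightest of each list, and the 3 closest profiles. Other genes named from the partner and marker lists were picked after their values were seen. The receptor genes and all lists were chosen with earlier results of these data known. Alternatives were the mean over probe sets, leaving out _s_at and _x_at probe sets, median centring, quantile normalization, a floor or a filter at the array median, and the threshold of 3.16-fold that the study used for a substantial change. Python 3.11.15, numpy 2.4.6, pandas 2.3.3 and matplotlib 3.10.9 were used.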

Additional observations from a re-analysis of the deposited data

Results flagged for a closer look

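Cd28 was singled out because its knockdown ratio had opposite signs in the 2 cultures, each beyond the spread of genes of like signal. The log2 ratio of Gata3 siRNA to control siRNA was 0.38 in Th2-4th cells and -0.22 in Th2-1st cells, and the second probe set gave 0.39 and -0.15. Neither ratio was past 2-fold, there is 1 array per condition, and the difference of 0.60 was not tested.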

How the results depend on the processing

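The count of receptor genes past 2-fold in either direction was within 1.5 times the reported one under most alternatives. With Gata3 siRNA in Th2-1st cells it was 2, and 1 after quantile normalization, which left out Ctla4 (-0.98), and 1 at 3.16-fold. In Th2-4th cells it was 2, and 0 at 3.16-fold. Between unstimulated cultures it was 5, and 3 once low signals were set to the array median, and 3 at 3.16-fold. That floor replaced both Lag3 signals (reported as -2.18), so its 0.25 there is only the log2 ratio of the array medians. The median log2 knockdown ratio of the 9 genes in Th2-1st cells was -0.01, and -0.18 after median centring, which moved the median of all genes from 0.05 to -0.12. In these cells the centring moved the knockdown ratios of Cd28, Icos, Ctla4, Pdcd1, Havcr2, Cd160 and Cd200 by more than the spread. Each kept its sign, with Cd28 going from -0.22 to -0.39 and Pdcd1 from 0.50 to 0.33. Median centring also moved the ratio of Th2-4th to Th2-1st over all genes from 0.17 to -0.07 without stimulation and from 0.10 to -0.14 after it. It put Icos at -1.06 without stimulation, past 2-fold, as did the mean over its probe sets (-1.30). Of 323 single ratios under the alternatives, 312 moved by less than the spread, 10 by more, and 1 by more with a turn of sign. That 1 is Lag3 as above, where the floor alone set the value. Many of the 323 could not move. The filter at the array median leaves the ratio of a gene as it was, as does the mean over probe sets where a gene has 1. Leaving out _s_at and _x_at probe sets could change no ratio or count, since none stood for a receptor gene. The 312 are therefore no measure of robustness. The mean over probe sets turned the sign of 2 ratios within the spread, both short of 2-fold, Cd28 between unstimulated cultures (0.01, reported as -0.15) and Cd160 between stimulated cultures (0.10, reported as -0.17). The cause was not tested. No paired analysis was possible because each condition has 1 array and the labels carry no replicate numbers.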

Other observations

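Crtam, another immunoglobulin superfamily receptor of activated T cells, was picked after its values were seen. It read 6232 with Gata3 siRNA, 4693 with control siRNA after stimulation and 95.6 without stimulation in Th2-4th cells, and 6587, 3298 and 12.7 in Th2-1st cells. Its log2 response was 5.62 in Th2-4th cells and 8.03 in Th2-1st cells, the value of Th2-1st cells resting on a low signal without stimulation, and its knockdown ratios were 0.41 and 0.998, the second just short of 2-fold. Vsir, encoding the inhibitory receptor VISTA and also picked after its values were seen, had log2 ratios of Th2-4th to Th2-1st control cells of 2.21 after stimulation and 1.43 without it, and knockdown ratios of 0.24 in Th2-4th and 0.37 in Th2-1st cells.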
